A study of Mus musculus with 12 samples.

Results

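The 10 genes Ddx58, Ifih1, Dhx58, Mavs, Aim2, Pyhin1, Ifi203, Casp1, Casp4 and Gsdmd belong to cytosolic nucleic acid sensing and inflammasome signalling and were followed across 4 groups of mouse T cells. They were chosen by name and were found by gene symbol and Ensembl ID among the 38924 gene IDs of the count tables, and all 10 passed the filter on low counts that left 13811 genes for testing. CD4+ T cells came from the spleens of C57BL/6 mice aged 8 to 12 weeks that were wildtype (WT) or carried the genotype labelled STING KO. The latter are STINGgt/gt (Goldenticket) mice, whose missense mutation leaves no functional STING but leaves the gene in place. Naive cells were sorted, activated through CD3 and CD28 with antibodies for 2 days, rested for 1 day without them, and treated with the solvent DMSO or with 10-carboxymethyl-9-acridanone (CMA), a cell-permeable agonist of mouse STING. The series gives the treatment as 16 h. Each of the 4 combinations (WT DMSO, WT CMA, STING KO DMSO and STING KO CMA) has 3 libraries. The paper's heat map of CMA against DMSO states 3 biological replicates. No label states that the libraries came from separate animals, so p-values measure the spread between these samples.

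RIG-I-like receptors are helicases that bind viral RNA in the cytosol and pass the signal through the mitochondrial adaptor MAVS to the kinases and IRF transcription factors that switch on interferon genes. PYHIN proteins bind DNA, and one of them, AIM2, assembles an inflammasome with the adaptor ASC (Pycard) and caspase-1. Inflammatory caspases cleave gasdermin D, whose fragment forms pores in the plasma membrane and releases interleukin-1β and interleukin-18, a form of death called pyroptosis. Many genes of both arms are known interferon-stimulated genes, and STING itself responds to cyclic dinucleotides made when DNA is sensed in the cytosol. The set is wider than its usual name, since Mavs is an adaptor, Casp1, Casp4 and Gsdmd are effectors, and Pyhin1 and Ifi203 belong to the PYHIN family without an established inflammasome of their own.

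Tmem173, the gene of STING, had 183 to 190 CPM in WT DMSO, 296 to 316 in WT CMA and 168 to 184 in the STING KO groups, and because a missense allele need not lower the transcript, this level does not check the genotype labels. Gene counts summed to between 27414450 and 43784910 per library. T cell markers were abundant in all groups (8 markers, summed level 2842 to 3266 CPM, the counts normalized for library size), but transcripts that mark other cells were present too, although a sort for naive CD4+ T cells should remove those cells. Summed CPM of 7 B cell markers was 666 to 734 in WT DMSO, 744 to 829 in WT CMA and 299 to 328 in the STING KO groups. For 11 myeloid markers it was 83.9 to 88.9, 139 to 144 and 56.5 to 62.8, and for 7 markers of CD8 T cells and natural killer cells 101 to 119, 56.6 to 59.0 and 35.5 to 38.0. The higher myeloid sum in WT CMA came from Mpeg1 (mean 19.4 CPM in WT DMSO and 62.2 in WT CMA) and Cst3 (38.6 and 55.7), while Lyz2, Itgam, Fcer1g and Itgax fell. In bulk samples a change in the share of a cell type and a change in RNA per cell cannot be told apart.

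With CMA, all 10 genes rose in WT T cells, by 1.12-fold (Aim2) to 14.6-fold (Ifih1). In STING KO T cells none was called higher and only Dhx58 was called, with a lower level. Calls are by edgeR's quasi-likelihood test at an adjusted p under 0.05. CMA changed much of the transcriptome of WT cells, so these counts are read against it. In WT, 33% of all genes tested were called higher and 70.4% were called in either direction. The 3 CMA libraries did not overlap the 3 DMSO libraries for 10 of the 10 genes and for 71.1% of all genes. A rise of at least 2-fold was called for 5 of the 10 genes, Ifih1, Pyhin1, Dhx58, Ifi203 and Ddx58, and for 9.32% of all genes. The median log2 fold change of the 10 genes was 1.48, against -0.04 over all genes tested. In STING KO, 1.32% of all genes were called, 0.398% higher and 0.92% lower. At an unadjusted p under 0.05, edgeR counted 6 of the 10 genes and 1790 of 13811 there. Of these 6, Ifih1, Ifi203, Casp4 and Gsdmd had positive log2 values, and Dhx58 and Ddx58 had negative ones. DESeq2, limma-voom and limma on the log2 table each called 1 of the 10, beside 2.37%, 1.35% and 1.8% of the genes each tested. The difference of the CMA effect between genotypes was called by edgeR for 9 of the 10 genes, with Mavs the exception (9 also by limma-voom, 10 by DESeq2 and by limma on the log2 table), and for 58.8% of all genes (27.2% with a higher and 31.6% with a lower effect in WT). It was called and at least 2-fold for 5 of the 10 and 8.7% of all genes. In STING KO the CMA and DMSO libraries did not overlap for 7 of the 10 genes, against 23.1% of all genes, and of those 7 only Dhx58 passed the test.

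**Figure D1:**
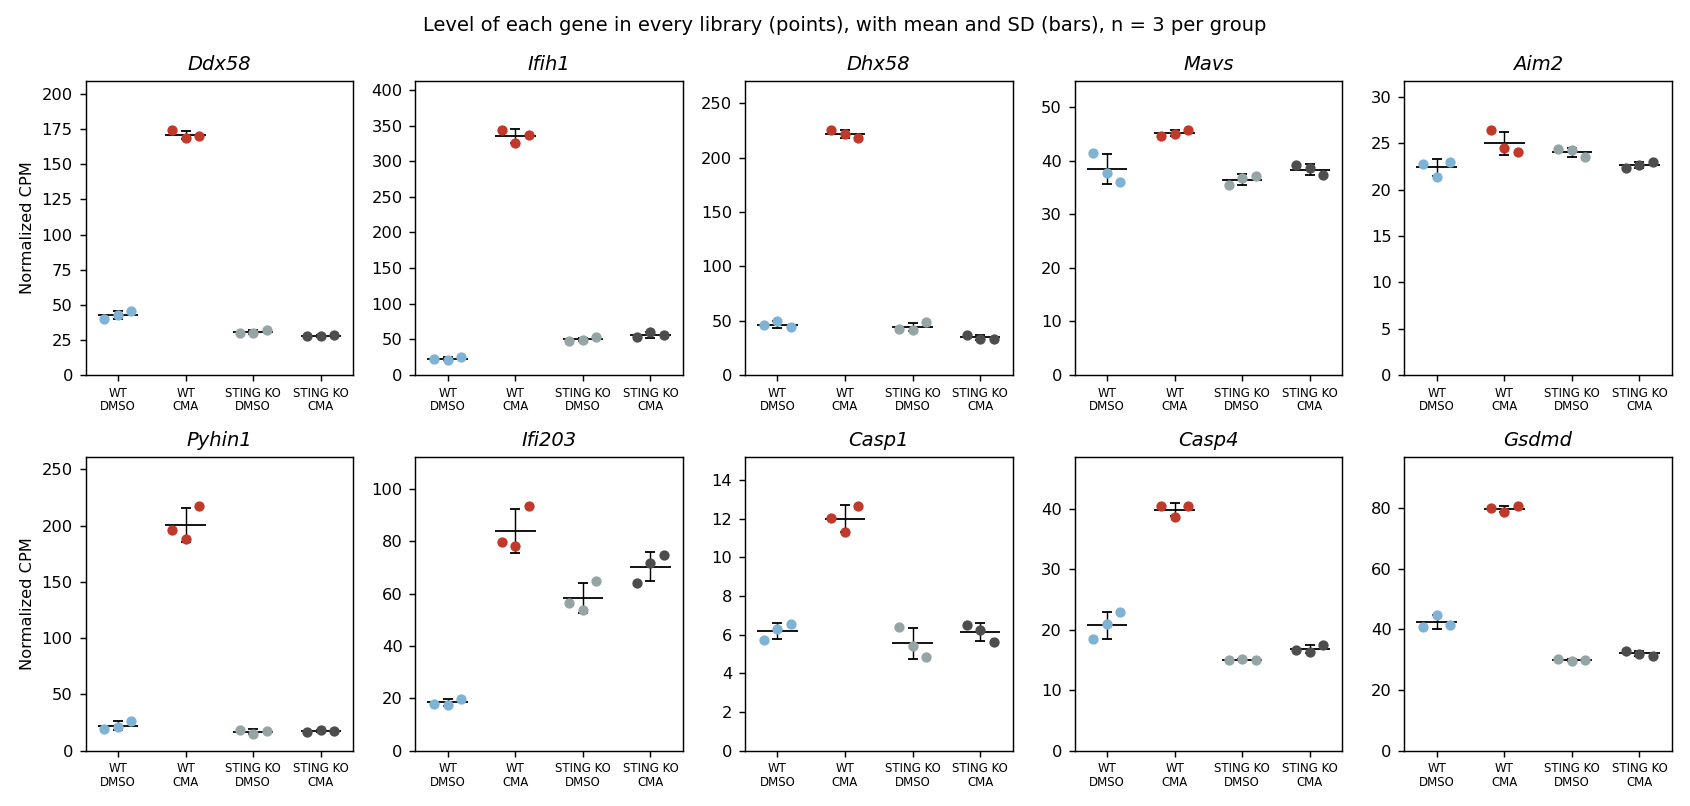
Normalized CPM (linear axis from 0, scale set per gene) of the 10 genes in every library of the 4 groups, with the group mean as a line and the SD as an error bar (n = 3). In WT the CMA libraries lie above the DMSO libraries for all 10 genes, and Ifi203 and Ifih1 are lower in WT DMSO than in both STING KO groups.

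Ifih1 (ENSMUSG00000026896, chromosome 2 of GRCm38, 62595798 to 62646255, minus strand) encodes MDA5, the sensor of long double-stranded RNA, and rose most of the 10 genes. Its CPM was 21.9, 21.5 and 25.2 in WT DMSO and 344, 325 and 336 in WT CMA. In STING KO DMSO it was 48.1, 48.8 and 52.7, and in STING KO CMA 52.9, 60.5 and 55.3. WT DMSO was thus the lowest group and WT CMA the highest, and neither overlapped another group. CMA raised it by 3.87 on the log2 scale in WT (95% interval 3.72 to 4.01, adjusted p = 5.91e-17, edgeR). In STING KO the log2 value was 0.17 (0.04 to 0.31, edgeR, adjusted p = 0.222), which passed the threshold when only the STING KO groups were fitted (0.17, adjusted p = 0.0486). The difference of these effects was 3.69 (edgeR, adjusted p = 2.45e-14). Among the 13811 genes tested, Ifih1 ranked 136 from the highest by fold change in WT.

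Ddx58 (ENSMUSG00000040296, chromosome 4, 40203773 to 40239828, minus strand) encodes RIG-I, which recognizes RNA with a 5′ triphosphate. Its CPM was 39.5, 42.7 and 45.5 in WT DMSO, 174, 169 and 170 in WT CMA, 30.0, 29.7 and 32.2 in STING KO DMSO and 27.4, 27.8 and 28.4 in STING KO CMA. No group overlapped another, and the order was WT CMA, WT DMSO, STING KO DMSO, STING KO CMA. The rise in WT was 4.01-fold (log2 2.00, standard error 0.0512, adjusted p = 5.84e-15, edgeR), and the log2 value in STING KO was -0.13 (adjusted p = 0.289).

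Dhx58 (ENSMUSG00000017830, chromosome 11, 100694884 to 100704271, minus strand) encodes LGP2, a helicase without signalling domains of its own that modulates the other receptors. Its CPM was 45.6, 49.7 and 43.8 in WT DMSO, 226, 222 and 219 in WT CMA, 42.2, 41.4 and 48.9 in STING KO DMSO, and 36.6, 33.3 and 33.4 in STING KO CMA. The DMSO libraries of the genotypes overlapped, whereas CMA libraries stood above them in WT and below them in STING KO. On the log2 scale CMA changed it by 2.26 in WT (edgeR, adjusted p = 1.93e-14) and by -0.36 in STING KO (95% interval -0.49 to -0.22, adjusted p = 0.0112). The STING KO call was lost without STING KO DMSO replicate 3 (log2 -0.28, adjusted p = 0.0582), without STING KO CMA replicate 2 (-0.33, 0.0621) and without STING KO CMA replicate 3 (-0.34, 0.0737, all edgeR). The antisense gene Dhx58os overlaps exons of Dhx58 and had 0 counts in the libraries.

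Mavs (ENSMUSG00000037523, chromosome 2, 131234063 to 131248025, plus strand), the adaptor shared by RIG-I and MDA5, moved little. Its CPM was 41.4, 37.7 and 36.0 in WT DMSO and 44.6, 45.0 and 45.7 in WT CMA, a 1.18-fold rise without overlap (log2 0.24, adjusted p = 0.000633, edgeR). STING KO DMSO stood at 35.4, 36.8 and 37.2 and STING KO CMA at 39.2, 38.5 and 37.2, groups that only just did not overlap, and the log2 value was 0.072 (95% interval -0.04 to 0.18, adjusted p = 0.605). The CMA effects differed by 0.16 (0.01 to 0.32), which missed the threshold (adjusted p = 0.0626, edgeR). The difference passed it without WT DMSO replicate 1 (0.23, adjusted p = 0.00801), without STING KO DMSO replicate 1 (0.20, 0.0462), with DESeq2 (0.19, 0.0453), with RLE scaling in edgeR (0.19, 0.0356), with limma on the log2 table (0.21, 0.0213) and with a minimum of 10 counts in every library (0.20, 0.0246).

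The other genes of RIG-I-like receptor signalling were read from lists of partners. Of 8 ubiquitin ligases and cofactors, 4 rose in WT with CMA, 1 fell and 3 did not pass the test (median log2 0.48), where 33% of all genes were called higher and 37.4% lower. Ddx60, a helicase cofactor of RIG-I, rose from a mean of 1.10 to 77.5 CPM (log2 6.09), and Trim25, the ligase that ubiquitinates RIG-I, from 147 to 552 CPM (log2 1.91). Zc3hav1, the zinc finger antiviral protein, rose by a log2 value of 1.12 and Rnf135, also known as Riplet, by 0.98. In STING KO, Zcchc3 was called among these 8 genes (log2 0.38, adjusted p = 0.0439, edgeR) and the others were not, against 1.32% of all genes.

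Of 11 effectors downstream of MAVS, 8 rose in WT (33% of all genes), 1 fell and 2 were not called. In STING KO edgeR called none of the 11 and 1.32% of all genes (0 of the 11 also at an unadjusted p under 0.05). DESeq2 and limma called 0 of the 11 as well, beside 1.35% to 2.37% of all genes. Irf7, the IRF that amplifies interferon induction, rose from 9.13 to 474 CPM (log2 5.69) and the kinase gene Ikbke from 66.8 to 234 CPM (log2 1.81). Tbk1, the kinase shared with STING, rose by a log2 value of 0.42 and Traf2 by 0.33, while Irf3 fell (log2 -0.25, edgeR, adjusted p = 0.00373). Among 11 negative regulators 4 rose and 4 fell in WT, near the shares of all genes (33% called higher and 37.4% lower), and the STING KO counts were again 0 by these tests. Those that rose were the deubiquitinase genes Otud5 (log2 1.04) and Usp21 (0.49), Nlrx1 (0.36), which encodes a mitochondrial NLR protein, and the autophagy gene Atg12 (0.34).

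**Figure D2:**
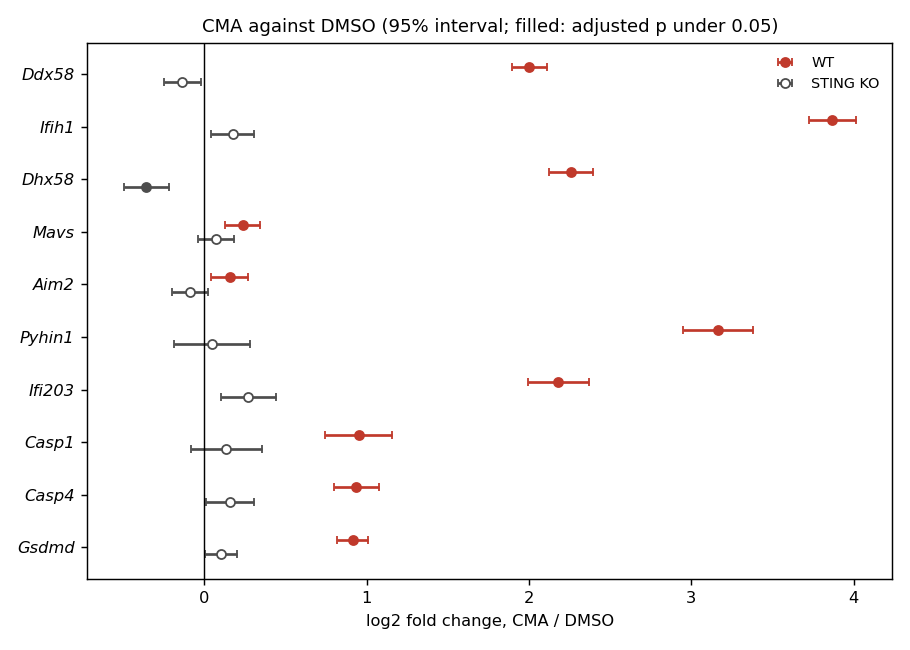
Log2 fold change of each gene with CMA against DMSO (horizontal axis) in WT and STING KO, with 95% intervals. Filled points passed an adjusted p of 0.05 in edgeR's test, which were all 10 in WT, from 0.16 for Aim2 to 3.87 for Ifih1, and Dhx58 alone in STING KO, at -0.36.

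The 3 PYHIN genes lie on chromosome 1 and did not move alike. Pyhin1 (ENSMUSG00000043263, 173630859 to 173647928, plus strand) had a CPM of 18.8, 21.1 and 26.6 in WT DMSO and 196, 188 and 218 in WT CMA. It stood at 18.1, 14.6 and 17.7 in STING KO DMSO and at 16.6, 18.3 and 17.1 in STING KO CMA. The CMA libraries of WT were far above the rest, and the STING KO groups overlapped. The rise in WT was 8.95-fold (log2 3.16, standard error 0.102, adjusted p = 9.4e-14, edgeR), and the STING KO log2 value was 0.0456 (95% interval -0.19 to 0.28, adjusted p = 0.902).

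Ifi203 (ENSMUSG00000039997, 173920407 to 173942672, minus strand) was low in WT DMSO alone. Its CPM was 17.9, 17.6 and 19.8 in WT DMSO, 79.7, 78.3 and 93.6 in WT CMA, 56.4, 53.6 and 64.8 in STING KO DMSO, and 64.0, 71.9 and 74.7 in STING KO CMA. WT CMA lay above the STING KO groups by a small margin, and the STING KO groups overlapped each other. It rose 4.53-fold in WT (log2 2.18, adjusted p = 1.73e-12, edgeR), and its log2 value in STING KO was 0.27 (95% interval 0.10 to 0.44, adjusted p = 0.125). The STING KO value passed the threshold without WT DMSO replicate 2 (0.27, adjusted p = 0.0392) and without WT DMSO replicate 3 (0.27, adjusted p = 0.0425), libraries of groups outside that comparison. It also passed when only the STING KO groups were fitted (0.27, adjusted p = 0.008, edgeR) and with no filter on low counts (0.28, adjusted p = 0.000385).

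Aim2 (ENSMUSG00000037860, 173350879 to 173466040, plus strand), the DNA sensor that forms an inflammasome, changed least of the 10 genes with CMA in WT. Its CPM was 22.8, 21.4 and 23.0 in WT DMSO, 26.4, 24.4 and 24.0 in WT CMA, 24.3, 24.2 and 23.5 in STING KO DMSO, and 22.3, 22.7 and 23.0 in STING KO CMA. All 12 libraries lay within 21.4 to 26.4 CPM, though WT CMA did not overlap WT DMSO. The log2 fold change was 0.16 in WT (95% interval 0.04 to 0.27, adjusted p = 0.0154, edgeR) and -0.0855 in STING KO (-0.20 to 0.03, adjusted p = 0.534), and the effects differed by 0.24 (adjusted p = 0.0109). The call in WT was lost without WT DMSO replicate 2 (0.12, adjusted p = 0.0729) and without WT CMA replicate 1 (0.11, adjusted p = 0.1).

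Other genes of the PYHIN family were matched for 11 genes, of which 9 passed the filter. All 9 rose in WT with CMA (log2 2.09 to 6.06, median 4.01), where 33% of all genes were called higher. In STING KO edgeR called none of the 9 and 1.32% of all genes (median of the 9 -0.38), where 2 had an unadjusted p under 0.05. DESeq2 and limma on the log2 table each called 1 of the 9 there, beside 2.37% and 1.8% of the genes each tested. BC094916, also named Ifi214, rose from 0.297 to 20.5 CPM, Ifi204 from 1.04 to 42.1, Pydc3 from 0.959 to 18.5 and AI607873 from 2.87 to 53.3. Aim2, at 0.16, was the lowest of the 12 family members tested, followed by Mndal (2.09) and Ifi203 (2.18). Copies in this cluster share sequence, and reads that align to several places were not counted. Of the 50-base words in the Pyhin1 transcripts of GENCODE M21, 33.7% also occur in another gene, nearly all in Ifi214, and of those of Ifi203 12.2%, most often in its pseudogene Ifi203-ps. Mndal overlaps exons of Ifi203 on the same strand. Levels of Pyhin1 and Ifi203 are therefore uncertain, while for Aim2 the share was 0.628%, for Ddx58 0.393%, and for the other 6 genes 0.

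**Figure D3:**
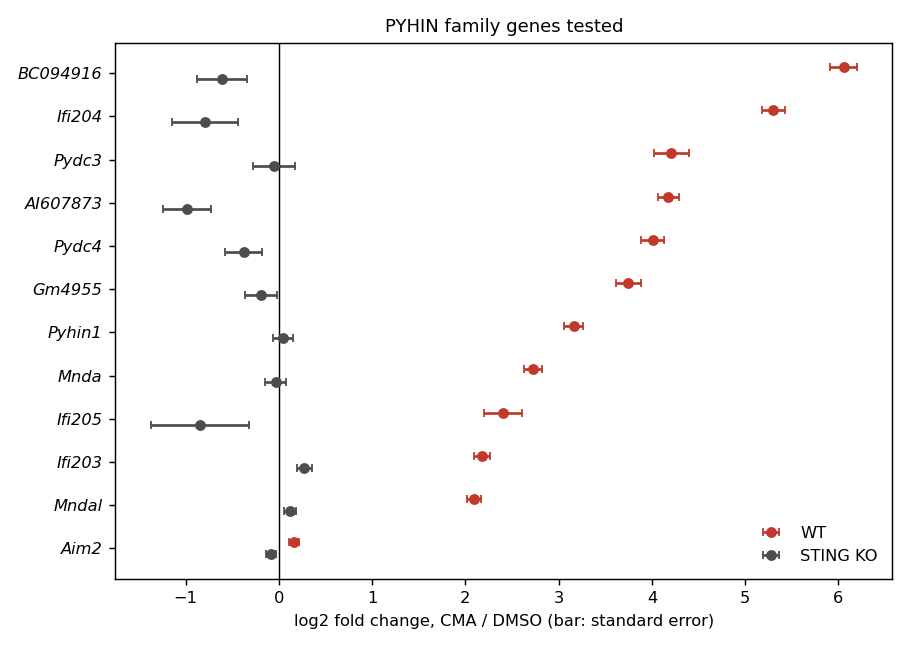
Log2 fold change with CMA against DMSO (horizontal axis, bars give the standard error) for the 12 PYHIN family genes tested, in WT and STING KO. In WT the values run from 0.16 for Aim2 to 6.06 for BC094916, and in STING KO no gene passed edgeR's test.

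Promoter sequences were compared among the genes, since all 12 PYHIN family genes tested rose in WT, Aim2 least. RefSeq windows of GRCm38.p6, from 250 bases before to 50 bases after a start, matched 8 of the 10 genes, all but Dhx58 and Gsdmd. They were searched on both strands for the core of the interferon-stimulated response element, GAAA and another GAAA with any 2 bases between them, bound by IRF proteins and by the interferon-activated complex ISGF3. It was present in windows of 3 of the 8 genes (Ifih1, Ddx58 and Ifi203) and of 7 of 8 further PYHIN family genes, all but Ifi202b. Counted by window this was 3 of 10 and 8 of 9, against 3.44% of 32851 windows of the genome. BC094916 and Ifi204, which rose most of the family in WT, had no window to search. The gamma-activated sequence TTCNNNGAA was in none of the 8 genes and in 8.30% of windows. Of the 8 further PYHIN family genes, Ifi202b alone had it. The 30 bases around the site of Ifi203, or its nearest match, are shown for family members so that the shared word can be compared. Capitals mark the 10-base site, and the order is 5′ to 3′ on the gene's strand.

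Ifi203 (chr1:173942508-173942537, minus strand): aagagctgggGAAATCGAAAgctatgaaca
Mndal (chr1:173880204-173880233, minus strand): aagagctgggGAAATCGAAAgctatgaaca
Pyhin1 (chr1:173630770-173630799, plus strand): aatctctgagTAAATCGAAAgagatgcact
AI607873 (chr1:173741831-173741860, minus strand): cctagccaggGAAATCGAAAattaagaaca
Pydc3 (chr1:173673597-173673626, plus strand): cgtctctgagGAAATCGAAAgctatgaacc
Mnda (chr1:173913064-173913093, minus strand): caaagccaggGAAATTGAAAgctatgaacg

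The word GAAATCGAAA of Ifi203 was identical in AI607873, Gm4955, Mndal, Pydc3 and Pydc4, and was found in 0.0487% of all windows. Counted from 1 at the 5′ end of the word, Mnda and Ifi205 differ from it by C6T and Pyhin1 by G1T, so that Pyhin1 differs from the searched core by 1 base. The windows of Ifi203 and Mndal hold identical 30-base stretches. Ifih1 and Ddx58 have a core just after the start, at bases 33 to 42 and 3 to 12, read on the opposite strand in Ddx58, where it is the same 10-base word as in Ifi203.

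Ddx58 (chr4:40239804-40239833, minus strand): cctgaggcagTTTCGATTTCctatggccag
Ifih1 (chr2:62646206-62646235, minus strand): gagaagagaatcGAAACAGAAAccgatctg

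Nearest matches to the word of Ifi203 were sought on the gene's strand only, and the opposite strand was not compared. On its strand the best match of the Aim2 window had 4 mismatches. This window lies at a RefSeq start inside the gene interval given for Aim2, so that the sequence before the first annotated base of that interval was not searched. Ifi203 does have a window at the first base of its interval, and that window held no core. Its printed site lies in another window, at a RefSeq start inside the interval. The Ifi203 window with the site and the Aim2 window are printed from base -250 to base 30, with the site of Ifi203 in capitals. They set the source of the word beside a window without a near match on the gene's strand. The window of Ifi202b, a family gene with 0 counts in the libraries, also had 4 mismatches on its strand. A match to these letters is a description of the sequence, and binding was not measured.

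Ifi203 (chr1:173942463-173942742, minus strand): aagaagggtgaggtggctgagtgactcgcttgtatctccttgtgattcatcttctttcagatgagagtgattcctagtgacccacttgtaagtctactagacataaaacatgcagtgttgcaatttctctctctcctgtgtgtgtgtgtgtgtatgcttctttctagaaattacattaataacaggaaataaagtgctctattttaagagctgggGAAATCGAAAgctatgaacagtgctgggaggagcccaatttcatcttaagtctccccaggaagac
Aim2 (chr1:173420354-173420633, plus strand): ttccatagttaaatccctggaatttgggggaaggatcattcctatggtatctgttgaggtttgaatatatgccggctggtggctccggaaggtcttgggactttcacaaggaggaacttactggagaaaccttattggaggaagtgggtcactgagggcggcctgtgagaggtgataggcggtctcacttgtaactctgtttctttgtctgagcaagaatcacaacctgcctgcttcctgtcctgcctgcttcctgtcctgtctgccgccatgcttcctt

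Casp1, Casp4 and Gsdmd, the effectors of the inflammasome arm, rose in WT with log2 values of 0.91 to 0.95. Casp1 (ENSMUSG00000025888, chromosome 9, 5298517 to 5307265, plus strand), the protease that matures interleukin-1β, had a CPM of 5.72, 6.27 and 6.53 in WT DMSO and 12.0, 11.3 and 12.7 in WT CMA. STING KO DMSO had 6.42, 5.39 and 4.86 and STING KO CMA 6.52, 6.22 and 5.64. WT CMA stood above all other libraries, and the 3 remaining groups overlapped. The rise in WT was 1.93-fold (log2 0.95, standard error 0.0980, adjusted p = 2.26e-07, edgeR), and the STING KO log2 value was 0.13 (95% interval -0.08 to 0.35, adjusted p = 0.634).

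Casp4 (ENSMUSG00000033538, chromosome 9, 5308828 to 5336783, plus strand) lies next to Casp1 and encodes the mouse caspase-11, which senses lipopolysaccharide in the cytosol. Its CPM was 18.4, 20.9 and 22.8 in WT DMSO, 40.5, 38.6 and 40.4 in WT CMA, 15.0, 15.2 and 15.0 in STING KO DMSO, and 16.6, 16.3 and 17.5 in STING KO CMA. No group overlapped another. Its log2 value with CMA reached 0.94 in WT (edgeR, adjusted p = 1.47e-09) and 0.16 in STING KO (95% interval 0.01 to 0.30, adjusted p = 0.341).

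Gsdmd (ENSMUSG00000022575, chromosome 15, 75862339 to 75867404, plus strand), the pore-forming gasdermin D, had a CPM of 40.8, 44.9 and 41.4 in WT DMSO and 80.0, 78.9 and 80.8 in WT CMA. STING KO DMSO stood at 30.1, 29.5 and 30.0 and STING KO CMA at 33.0, 31.8 and 31.4. As for Casp4, no group overlapped another. Its log2 value with CMA reached 0.91 in WT (edgeR, adjusted p = 1.92e-11) and 0.10 in STING KO (adjusted p = 0.373). Between WT and STING KO the CMA effects differed by 0.82 for Casp1, 0.78 for Casp4 and 0.81 for Gsdmd (log2).

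Of 12 genes of inflammasome sensors and their adaptor 7 passed the filter, and in WT with CMA 2 rose, 2 fell and 3 were not called, which is not above the 33% and 37.4% of all genes. Pycard, which encodes the adaptor ASC, fell from 41.6 to 27.3 CPM in WT (log2 -0.61, adjusted p = 3.46e-07, edgeR) and stood at 45.3 and 44.1 in STING KO. Nek7, a partner of NLRP3, fell by 0.26 on the log2 scale, and Nlrc4 rose from 1.52 to 2.78 CPM (log2 0.86). Nlrp3 was scarce, at 0.577 CPM in WT DMSO and 0.423 in WT CMA (log2 -0.48, adjusted p = 0.182).

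Cytokines of the interleukin-1 family were scarce. Il1b had a mean of 1.93 CPM in WT DMSO and 1.64 in WT CMA (log2 -0.24, adjusted p = 0.291, edgeR) and Il1a 1.13 and 1.02 (log2 -0.14, adjusted p = 0.584). Il18 rose from 0.595 to 1.25 CPM (log2 1.08, adjusted p = 0.000919). The genes of the inhibitors Il1rn, the interleukin-1 receptor antagonist, and Il18bp, the interleukin-18 binding protein, rose from 4.58 to 16.8 CPM (log2 1.85) and from 3.24 to 9.05 CPM (log2 1.49). Of the 6 genes in this list 3 rose in WT (33% of all genes), and in STING KO edgeR called 0 (1.32% of all genes), also at an unadjusted p under 0.05.

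Of 13 matched genes of pyroptosis effectors and other inflammatory caspases 9 passed the filter, with 4 higher and 4 lower in WT (33% and 37.4% of all genes) and 0 called in STING KO by edgeR (1.32% of all genes), also at an unadjusted p under 0.05. Serpinb9, an inhibitor of granzyme B, rose from 88.8 to 470 CPM and Txnip from 76.7 to 114 CPM (log2 0.57). P2rx7, the ATP-gated channel upstream of NLRP3, fell from 19.6 to 3.29 CPM (log2 -2.58), and Serpinb1a, an inhibitor of neutrophil serine proteases, from 12.7 to 4.62 CPM (log2 -1.48).

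Comparing the genotypes with DMSO alone showed differences without CMA, in both directions. Of the 10 genes, 4 were higher in WT (Ddx58, Pyhin1, Casp4 and Gsdmd), 2 were lower (Ifih1 and Ifi203) and 4 were not called, while 42.7% of all genes were called, 22.9% higher and 19.8% lower. The groups did not overlap for 7 of the 10 genes and for 47.9% of all genes. Ifi203 was 3.15-fold lower in WT (log2 -1.65, adjusted p = 3.86e-10, edgeR). Ifih1 was 2.17-fold lower (log2 -1.12, adjusted p = 1.32e-09). By fold change they ranked 13746 and 13625 from the highest of 13811 genes. A lower level of at least 2-fold in WT was called for these 2 genes and for 1.56% of all genes. Gsdmd, Ddx58, Casp4 and Pyhin1 were higher in WT by log2 values of 0.51, 0.48, 0.47 and 0.41, with the largest adjusted p at 0.00627 for Pyhin1 (edgeR).

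Genes of the same pathways also went both ways at this baseline, beside 22.9% of all genes called higher and 19.8% lower in WT. Of the 9 further PYHIN genes tested 5 were higher in WT, among them AI607873 (log2 1.52) and Ifi204 (1.44), and 2 were lower, Mndal (-1.74), which overlaps Ifi203, and Pydc3 (-0.72). Of 11 effectors downstream of MAVS 1 was higher and 5 were lower, among them Irf7 (-0.89) and Ikbke (-0.77), and of 8 ligases and cofactors Ddx60 was the 1 called, at -0.52. Of 7 inflammasome sensors and adaptor genes tested 5 were higher and 1 was lower, with Nlrp3 higher by 2.48. Of the 6 cytokine and inhibitor genes 4 were higher, with Il1b at 2.64, Il1rn at 2.27 and Il1a at 1.58. Of 9 pyroptosis genes tested 4 were called, all higher, among them Serpinb1a (2.74) and P2rx7 (0.90). Of 11 negative regulators 4 were called, with Rnf125 (0.80), Tax1bp1 (0.425) and Itch (0.25) higher and Otud5 (-0.15) lower. The markers of other cells moved in this comparison as well. All 7 B cell markers were higher in WT (median log2 1.06), as were 10 of 10 myeloid markers tested (median 1.42) and 6 of 7 markers of CD8 T cells or natural killer cells, and of 8 T cell markers 2 were lower. The defining myeloid markers were scarce but not absent, with Csf1r at 0.384 and Lyz2 at 3.25 CPM in WT DMSO against 0.0698 and 0.489 in STING KO DMSO. The part of these cells in the genotype differences was not tested. With CMA in WT, where 33% of all genes were called higher and 37.4% lower, 4 of 8 T cell markers fell (Cd3e by 0.66 on the log2 scale) and Cd4 rose, with a summed level of 3078 to 3149 CPM in WT DMSO and 2842 to 2853 in WT CMA. In the same comparison 2 myeloid markers rose and 4 fell, 4 B cell markers rose and 1 fell, and 5 of 7 markers of CD8 T cells or natural killer cells fell, and their part in the CMA effects was not tested.

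**Figure D4:**
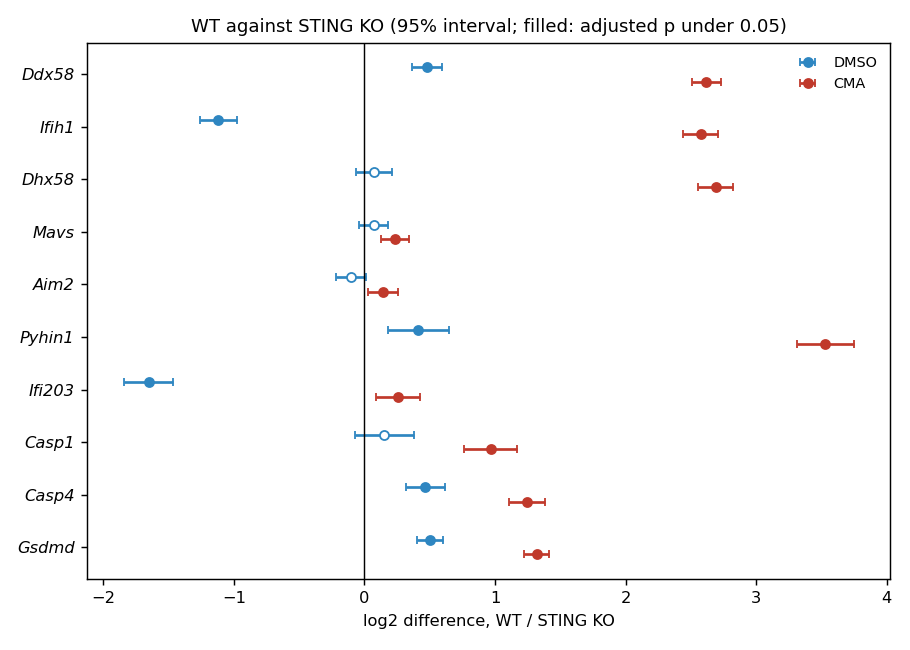
Log2 difference between WT and STING KO (positive values are higher in WT) with DMSO and with CMA, with 95% intervals and filled points for an adjusted p under 0.05 in edgeR's test. With DMSO, Ifi203 (-1.65) and Ifih1 (-1.12) lie left of 0, and with CMA all 10 genes lie right of it.

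With CMA all 10 genes were higher in WT than in STING KO, 6 of them by at least 2-fold, where 37% of all genes were called higher, 73.5% in either direction and 13% at least 2-fold higher. The groups did not overlap for 10 of the 10 genes and for 78.9% of all genes. Pyhin1 differed most, at 11.6-fold, followed by Dhx58 at 6.45-fold, Ddx58 at 6.13-fold and Ifih1 at 5.95-fold. The log2 difference of Ifih1 between genotypes was 2.57, and its level in both STING KO groups was above that of WT DMSO. For Ifi203 the difference with CMA was 1.19-fold (log2 0.26, adjusted p = 0.00804, edgeR), and it was lost without WT CMA replicate 3 (log2 0.17, adjusted p = 0.0664). For Aim2 it was 1.10-fold (log2 0.14, adjusted p = 0.0234, edgeR), and it was lost without WT CMA replicate 1 (0.10, adjusted p = 0.149), without STING KO CMA replicate 1 (0.14, 0.0546), when libraries were scaled to their totals (0.09, 0.125) or thinned to the smallest total (0.10, 0.0914), and with no filter (0.14, 0.0838). These comparisons share the WT CMA libraries with those of CMA against DMSO.

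Levels were compared between genes per kilobase of exon (CPM per kb). In WT DMSO Gsdmd was highest at 17.8 ± 0.928 (SD, n = 3), followed by Dhx58 at 14.2 ± 0.935 and Mavs at 11.5 ± 0.821. Aim2 (6.39), Pyhin1 (6.25), Ddx58 (6.04) and Casp4 (5.58) followed, and each overlapped the next in its range over the libraries. Casp1 (4.12) stood apart from both neighbours, and Ifih1 (2.80) and Ifi203 (2.75) were lowest and overlapped. With CMA in WT the order became Dhx58 (67.8), Pyhin1 (56.5), Ifih1 (41.0), Gsdmd (33.6), Ddx58 (24.3), Mavs (13.5), Ifi203 (12.5), Casp4 (10.7), Casp1 (8.01) and Aim2 (7.13), where Mavs overlapped Ifi203 and Casp1 overlapped Aim2. Ifih1 moved from position 9 to position 3, and Mavs from 3 to 6. In STING KO DMSO, Dhx58 (13.5) was first and overlapped Gsdmd (12.6), followed by Mavs (10.9) and Ifi203 (8.69). In STING KO CMA, Gsdmd (13.5) was first and stood apart from Mavs (11.5), which overlapped Dhx58 (10.5), as did Ifi203 (10.5) in position 4.

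**Figure D5:**
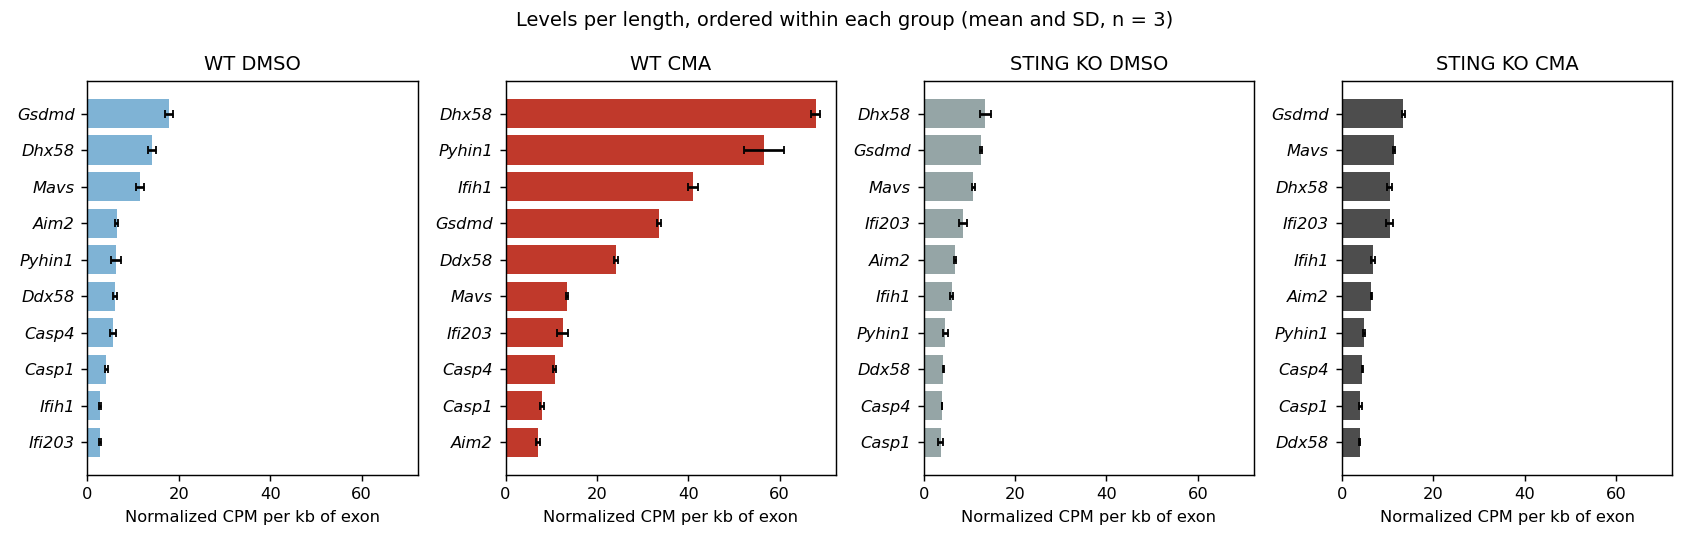
CPM per kilobase of exon (horizontal axis, mean with SD, n = 3) for the 10 genes, ordered within each of the 4 groups. Gsdmd leads in WT DMSO at 17.8, Dhx58 leads in WT CMA at 67.8, and no gene passes 13.5 in the STING KO groups.

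Over the 12 libraries the genes split by how they tracked each other, which is a description, since the libraries share their treatments. Pearson's r of log2 CPM between Ddx58 and Pyhin1 was 0.99, between Casp4 and Gsdmd 0.989 and between Ddx58 and Dhx58 0.988. Ifi203 followed Gsdmd with 0.193, Casp4 with 0.251 and Ddx58 with 0.305, and Ifih1 with 0.771. Among 11189 further genes with a mean count of at least 50, the most like Ddx58 were Cacnb3 (0.9985) and Oasl1 (0.998), and the most like Ifih1 were Gbp9 (0.9983) and Gbp5 (0.9979). For Dhx58 they were H2-K1 (0.9953) and Ptov1 (0.9944), for Pyhin1 Stat4 (0.9977) and Mnda (0.9974), and for Ifi203 Mndal (0.9952) and Gsap (0.9903). Casp1 was nearest to Suds3 (0.9883) and Ei24 (0.9879), Casp4 to Sfr1 (0.9935) and Etv6 (0.9932), and Gsdmd to Abhd4 (0.9981) and Zfp629 (0.998). The 2 genes with the smallest changes had the weakest partners, with Cables2 (0.965) and Tyro3 (0.9642) for Mavs and Spg11 (0.89) and Kat7 (0.8847) for Aim2.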

How the data were processed

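RNA was sequenced in 12 libraries, 3 per group. The authors deposited counts of reads per Ensembl gene, not normalized, and a table of log2 expression of 11921 genes, which was used as an alternative only. The submitters' processing notes name cutadapt 1.3, STAR 2.4.0f1, HTSeq 0.6.1, RSEM 1.2.16 and GRCm38, and the strand setting of the counting is not given in the sources used here. Alignments that were not unique (27.8% to 30.3% of entries) were left out of the gene counts, so genes with close copies are undercounted. Tally lines that name no gene (reads outside genes 4.86% to 7.16%, ambiguous reads 0.594% to 0.635%) were kept out of library sizes. In WT DMSO 29.6% to 30.3% were not unique and 4.86% to 5.47% lay outside genes. These shares were 27.8% to 27.9% and 6.79% to 7.16% in WT CMA. In the STING KO groups they were 28.1% to 29.0% and 5.98% to 6.54%. Their part in the group differences was not tested.

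Counts were tested with edgeR 4.0.16 in R 4.3.3 (TMM scaling, filterByExpr, quasi-likelihood test, 4 groups in 1 model without a block), and p-values were adjusted over 13811 genes by the Benjamini-Hochberg method, with 0.05 as the threshold. CPM are counts scaled to the effective library size. Replicates of a group differed beyond sampling noise (chi-square per degree of freedom 2.57 to 28.6). The largest values were those of WT DMSO, at 9.54 to 28.6, against 2.57 to 6.57 in the other groups. An exact permutation test of 3 against 3 cannot go below p = 0.1, so model p-values are given. The members, lists and tests were chosen with earlier results of these data known. All 10 members are named, with at most 4 genes per list (largest change in WT among those called, mean count of at least 50), the cytokines, Pycard and Nlrp3, and the 2 most similar genes per member. Further genes (Irf3, Zcchc3, Mndal, Rnf125, Tax1bp1, Itch, marker genes) were named after their values were seen. The fit was tested on simulated data. Alternatives were other scalings, DESeq2 1.42.0, limma 3.58.1, filters, thresholds, blocks, thinned libraries and leaving out each library.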

Additional observations from a re-analysis of the deposited data

Results flagged for a closer look

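The CMA effect differed between WT and STING KO by a test of the difference itself (edgeR, adjusted p under 0.05) for 9 of the 10 genes. In log2 units the effect in WT exceeded that in STING KO by 3.69 for Ifih1, 3.12 for Pyhin1, 2.62 for Dhx58, 2.14 for Ddx58, 1.91 for Ifi203, 0.82 for Casp1, 0.81 for Gsdmd, 0.78 for Casp4 and 0.24 for Aim2. Such a difference was called for 58.8% of all genes tested. For Ddx58, Dhx58 and Aim2 the fitted value in STING KO was below 0, and of these Dhx58 passed the test there.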

How the results depend on the processing

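Of 1200 results for single genes under the alternatives, 1152 kept their direction and side of the threshold, 34 lost the call, 12 gained one and 2 changed sign. Those 2 were Pyhin1 in STING KO, at -0.0886 with a replicate block by library name and -0.0494 without STING KO DMSO replicate 2. This gene was called under none of the alternatives there, and leaving out 1 library moved it between -0.0494 and 0.104. Requiring at least a 2-fold change left 5 genes called for CMA in WT, 5 for the difference of the effects, 2 for the genotypes with DMSO, 6 with CMA and 0 for CMA in STING KO. The STING KO count, 1 in the analysis reported (1.32% of all genes), became 2 with no filter (1.96%) and 3 with only the groups compared (5%). With the replicate block it was 2 (2.63% of all genes, Ifi203 added, log2 0.27, adjusted p = 0.00898, edgeR). It was 0 when the replicate block followed the library name (0.311% of all genes, Dhx58 at -0.37, adjusted p = 0.0646, edgeR). In that block STING KO DMSO replicate 2 and STING KO CMA replicate 2 had no partner and added nothing to the CMA effect. At an adjusted p under 0.01 without a block, the STING KO count was 0. Leaving out 1 library gave 9 to 10 genes for CMA in WT (65.8% to 70.3% of all genes) and 0 to 2 in STING KO (0.399% to 3.27%). For the difference it gave 9 to 10 (54.4% to 60.7%). Between genotypes it gave 6 with DMSO (35.6% to 45.8%) and 9 to 10 with CMA (69% to 75.6%).

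Replicate numbers were not treated as pairs in the analysis reported. Deviations of log2 CPM from the group mean were correlated between DMSO and CMA libraries over the genes tested. Same-numbered libraries gave r of 0.0019, 0.1038 and 0.1319 in WT and 0.0634, 0.0597 and 0.0585 in STING KO. Different-numbered libraries gave -0.1501 to 0.056 in WT and -0.061 to 0.0035 in STING KO. These values do not settle whether the libraries are pairs. Comparisons between genotypes could not be fitted with a block. The 3 libraries per group limit the precision, and for Pyhin1 and Ifi203 by shared sequence. The causes of these changes were not tested.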
